A study of Mus musculus with 12 samples.

Results

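Mouse livers were compared after exercise and at rest for 37 genes of fatty acid oxidation, ketone body formation and the nuclear receptor PPARα. These genes were taken by symbol from the 17432 genes of the deposited table, and all 37 were found and had enough counts to be tested. They encode the receptor and a partner factor, proteins of fatty acid uptake and activation, the carnitine shuttle, the enzymes of mitochondrial and peroxisomal β-oxidation, enzymes of ketone body formation, and further PPARα target genes. RNA came from whole livers of 12 male wild-type mice on the C57BL/6J background, a common inbred laboratory strain, aged 8 to 10 weeks and kept on chow. All mice ate in the daytime and fasted overnight for 3 days, were briefly acclimated to a treadmill, and were refed for 3 h on the test day before the food was removed. The 6 mice of the Exercise group then ran at 14 m/min for 3 h, while the 6 mice of the Sedentary group did not run, and tissue was taken from both groups at the same time. The exercised livers therefore come from mice that ran in the fed state, and rest after the same meal is the only control.

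In the fasted liver, PPARα binds DNA together with a retinoid X receptor (RXR) and raises transcription of genes that burn fatty acids. Fatty acids are bound by carriers, joined to coenzyme A by acyl-CoA synthetases, and carried into mitochondria by the carnitine shuttle, whose entry enzyme is CPT1A. There the β-oxidation spiral removes acetyl-CoA in repeated rounds of dehydrogenation, hydration, dehydrogenation and thiolysis, and the liver turns much of this acetyl-CoA into ketone bodies that it exports to other organs. Peroxisomes run a separate spiral for very long and branched chains, and the CYP4A enzymes oxidise fatty acids at the far (omega) end. Feeding and insulin are known to restrain this programme, and fasting to raise it.

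PPARα and RXR classically bind 2 copies of AGGTCA separated by 1 base, a direct repeat called DR1. The 250 bases before the transcription start were searched for it on both strands in RefSeq promoters of build GRCm38.p6. The search covered 33 windows for 30 of the 37 genes. No window of Acaa2, Acat1, Decr1, Hsd17b4 or the PPARα targets Cyp4a10, Cyp4a14 and Vnn1 was searched. The shares that follow leave these genes out. None of the 33 windows held the repeat without a mismatch over its 12 compared bases, against 0.0335% of all 32851 windows. With at most 1 mismatch the repeat stood in 1 of 33 windows (3.03%, against 0.484% of all windows), that of Fabp1, whose product carries fatty acids in the hepatocyte cytosol. With at most 2 mismatches, 5 windows held it (15.2%, against 3.24% of all windows), those of Fabp1, Cd36, Creb3l3, Echs1 and Etfa. The best words, read 5′ to 3′ on the strand where they lie, are shown with their genes because they are the closest to the PPARα element.
Fabp1: AGGCCATAGGTCA
Cd36: AAGTCAGAGGCCA
Creb3l3: AGGGGAGAGGTCA
Echs1: AGGTCACGGGTCC
Etfa: AGGGCAAAGGTAA
The single half-site AGGTCA stood on either strand in 8 of 33 windows (24.2%, against 14% of all windows). These matches describe the letters of the promoters, and no binding was measured here.

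The promoter of Fabp1 is printed as the carrier of the closest repeat, at chr6:71199629-71199826 on the plus strand, from base 250 to base 53 before the RefSeq start, with the repeat in capitals as it reads on the opposite strand. Its first base lies 67 bases before the start. The promoters of both pairs of neighbouring paralogs follow, because the levels of each pair are compared within livers further on: Acot1 (chr12:84009252-84009489, plus strand) and Acot2 (chr12:83987611-83987860, plus strand), and Acaa1a (chr9:119341160-119341293, plus strand) and Acaa1b (chr9:119157094-119157343, minus strand). Bases that lie in an annotated exon were left out of each. None of these 4 stretches holds the half-site, so they are in lower case throughout.
Fabp1: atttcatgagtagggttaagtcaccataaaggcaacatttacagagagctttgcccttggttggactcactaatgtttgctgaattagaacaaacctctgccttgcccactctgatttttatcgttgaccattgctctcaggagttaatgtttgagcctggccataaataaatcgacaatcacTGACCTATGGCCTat
Acot1: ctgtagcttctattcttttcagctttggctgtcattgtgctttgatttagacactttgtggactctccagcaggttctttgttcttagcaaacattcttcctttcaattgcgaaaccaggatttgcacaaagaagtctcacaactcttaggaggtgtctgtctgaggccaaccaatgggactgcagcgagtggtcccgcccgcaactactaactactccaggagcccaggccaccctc
Acot2: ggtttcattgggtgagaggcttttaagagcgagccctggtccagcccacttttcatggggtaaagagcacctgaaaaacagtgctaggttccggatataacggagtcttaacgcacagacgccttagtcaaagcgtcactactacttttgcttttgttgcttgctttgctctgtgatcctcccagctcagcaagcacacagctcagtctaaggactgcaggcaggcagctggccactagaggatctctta
Acaa1a: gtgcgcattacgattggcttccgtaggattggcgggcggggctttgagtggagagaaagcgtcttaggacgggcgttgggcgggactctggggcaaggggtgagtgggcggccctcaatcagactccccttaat
Acaa1b: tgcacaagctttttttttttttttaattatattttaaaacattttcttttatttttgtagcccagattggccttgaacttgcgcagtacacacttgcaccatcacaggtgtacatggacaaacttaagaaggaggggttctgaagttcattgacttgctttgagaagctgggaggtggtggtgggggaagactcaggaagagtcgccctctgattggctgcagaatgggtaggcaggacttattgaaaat

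Each library held between 18745379 and 19324461 estimated reads on genes, and 12344 genes were tested with edgeR's quasi-likelihood test, with p-values adjusted over all of them by the Benjamini-Hochberg method. Across all genes tested, 21.1% were higher and 21.3% lower after exercise at an adjusted p under 0.05, so a change is common in these livers. The median log2 fold change of all genes was -0.0028. Hepatocyte markers made up 130509 to 175247 CPM (reads scaled to a common library size) in sedentary and 163310 to 184629 in exercised livers, and 3 of 8 of these genes were higher after exercise. Among the genes of other cell types, the adipocyte genes Plin1 and Cfd stayed under 0.1 CPM in every liver, while Fabp4 was higher after exercise (log2 fold change 0.58). The 5 Kupffer cell markers summed to 51.1 to 87.1 CPM in sedentary and 60.6 to 91.4 CPM in exercised livers, and none of them passed the test. The same held for the cholangiocyte, lymphocyte, neutrophil and erythroid markers tested, while the endothelial markers Pecam1 (0.49) and Lyve1 (1.18) were higher, Kdr (-0.19) was lower, and the stellate cell markers Lrat (-0.59) and Des (-0.40) were lower. The cardiac muscle gene Myh6 was lower after exercise (log2 fold change -2.72, adjusted p = 0.0421 from edgeR), with 4.29 to 10.6 CPM in sedentary livers. Within the exercised group Exercise 1 stood apart, with 5.80 CPM of Myh6 against 0.00 in the other 5 exercised livers. Whether changes in the share of cell types moved the values that follow was not tested, and in whole tissue fewer cells of a type and less RNA per cell cannot be told apart. Levels are given as CPM after TMM scaling (trimmed mean of M values), and folds as exercised over sedentary. Livers are called by group and replicate number.

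Of the 37 genes, 2 were higher after exercise (5.41%), 14 were lower (37.8%) and 21 did not pass the test, against the 21.1% and 21.3% of all genes given above. Ppara and the mitochondrial carrier gene Ucp2 were the higher ones. The lower genes were Creb3l3, Fabp1, Acsl1, Acsl5, Acot2, Slc25a20, Acadvl, Hadh, Echs1, Decr1, Bdh1, Ehhadh, Acaa1a and Acaa1b. The median log2 fold change of the 37 genes was -0.13, and 29 of them had a negative one. In 9 genes every exercised liver was below every sedentary liver (24.3%, against 10.6% of all genes tested), and in none was every exercised liver above, against 11.7% of all genes. The counts without Exercise 1 were 2 higher and 12 lower, and without Exercise 3, which had the highest level of its group in 16 genes, they were 2 and 13. Scaling by library size alone, which moves the median of all genes to -0.0985, gave 2 higher and 24 lower. Of the genes that passed, Acot2 and Acsl1 changed by at least 1.5-fold.

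**Figure D1:**
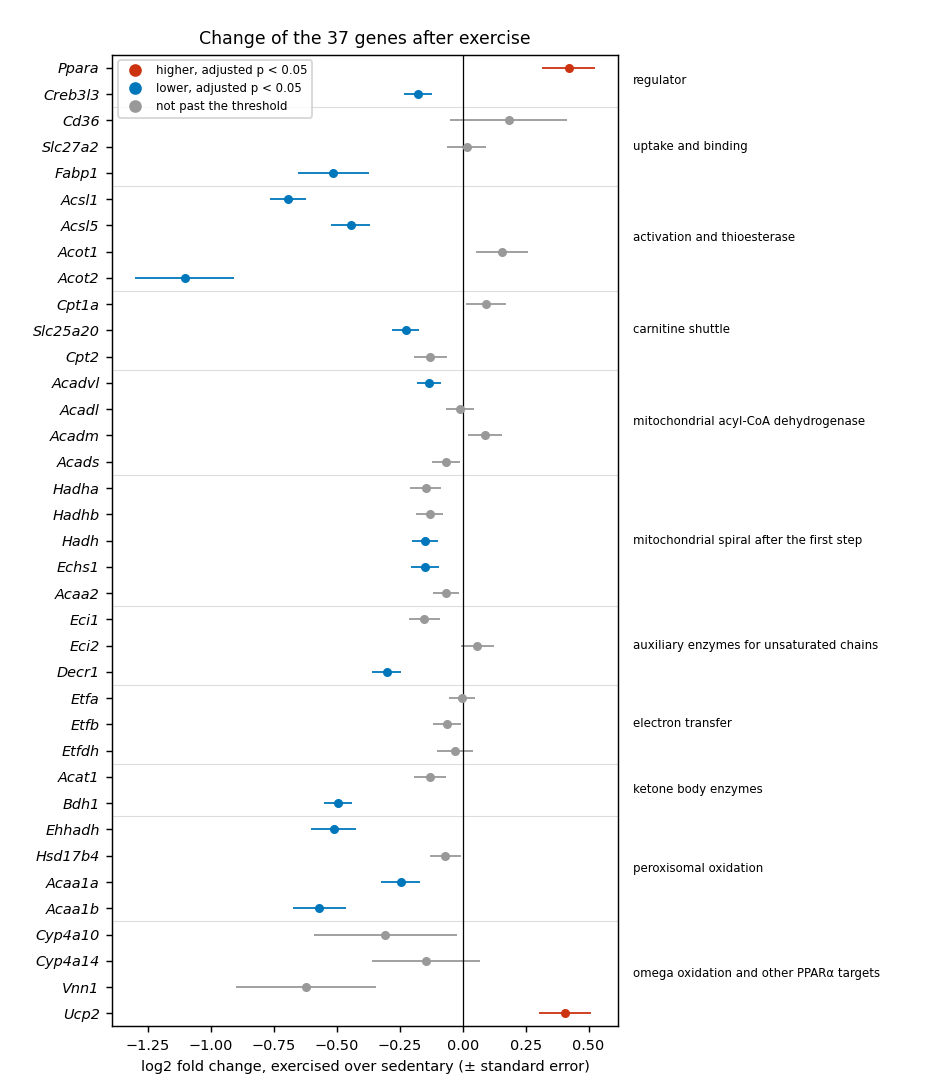
Log2 fold change of each of the 37 genes, exercised over sedentary, with its standard error from edgeR (n = 6 livers per group), ordered by role. Red points were higher and blue points lower at an adjusted p under 0.05, and grey points did not pass. Ppara and Ucp2 lie to the right, most mitochondrial enzymes lie just left of 0, and Acot2 lies farthest left at -1.10.

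The level of Ppara (gene ID 19013, chromosome 15 of GRCm38, 85734910 to 85806851), the fatty acid receptor at the head of this programme, ran from 123.3 to 160.9 CPM in sedentary livers, with a median of 134.7. In exercised livers it ran from 156.2 to 255.8 CPM, with a median of 177.9. All 6 exercised livers were above the sedentary median, but Exercise 2 was below the highest sedentary liver, so the groups overlapped. The log2 fold change of Ppara was 0.42 (standard error of the fit, SE, 0.104; adjusted p = 0.00414 from edgeR), and a two-sided exact permutation test over the 12 livers gave p = 0.00433. The highest liver, Exercise 3, stood far above the next one at 186.5 CPM. Without it the log2 fold change was 0.32 with an adjusted p of 0.0021 from edgeR.

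Creb3l3, which encodes a membrane-bound transcription factor that acts with PPARα on target genes, moved the other way. It was between 210.7 and 245.4 CPM in sedentary livers and between 186.3 and 214.1 CPM in exercised livers, a log2 fold change of -0.18 (SE 0.0571, adjusted p = 0.0184 from edgeR). This call was lost without Exercise 5, with an adjusted p of 0.0607.

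Fatty acid uptake was represented by Cd36, which encodes a fatty acid translocase of the cell surface, Slc27a2, which encodes a transport protein with acyl-CoA synthetase activity, and Fabp1. Cd36 was low and variable, between 8.72 and 25.7 CPM in sedentary and between 14 and 23.2 CPM in exercised livers (log2 fold change 0.18, adjusted p = 0.574 from edgeR). Slc27a2 differed by 0.02 on the log2 scale (adjusted p = 0.893 from edgeR), and its sign turned under 5 of the other scalings and units. Neither passed the test.

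Fabp1 (gene ID 14080, chromosome 6, 71199879 to 71205034) had the highest level per transcript length of the 37 genes in both groups. In sedentary livers it ran from 1386 to 2481 CPM with a median of 2176, and in exercised livers from 1180 to 1642 CPM with a median of 1467. Sedentary 5 (1386 CPM) and Sedentary 6 (1523 CPM) lay among the exercised livers, and the other 4 sedentary livers lay above all of them. Fabp1 fell by 0.51 on the log2 scale (SE 0.142, adjusted p = 0.00988 from edgeR; two-sided exact permutation test, p = 0.026). With the replicate number as a block the call was lost (adjusted p = 0.0628).

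**Figure D2:**
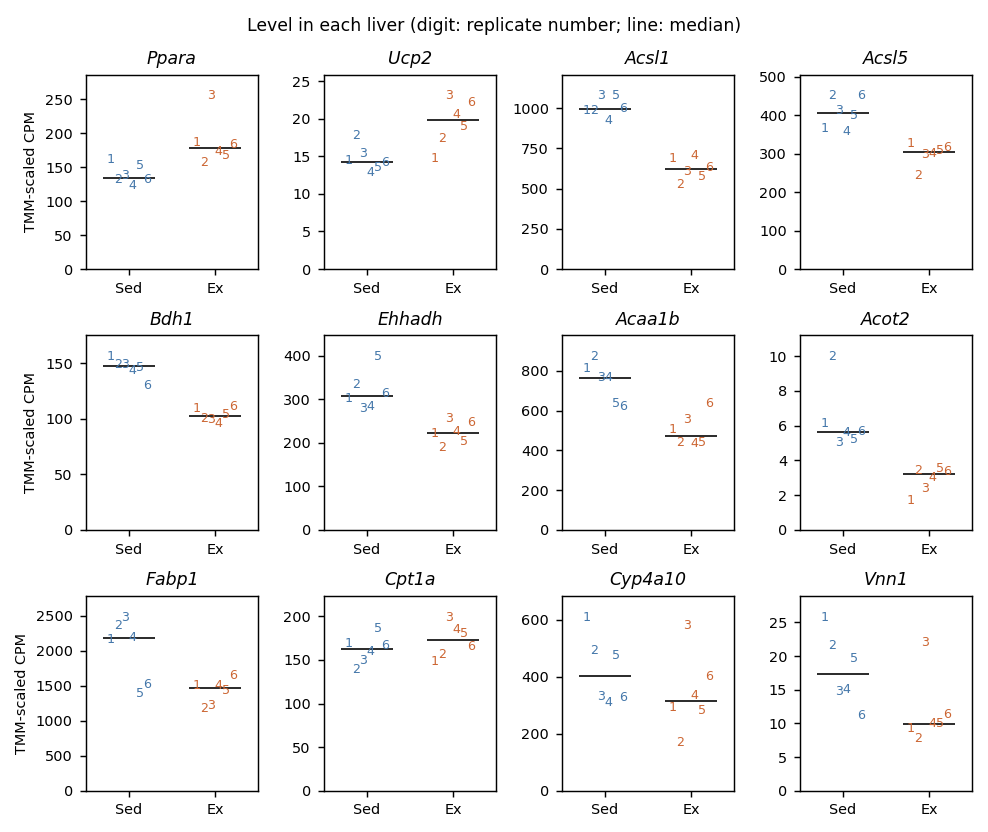
Level of 12 of the genes in each liver as TMM-scaled CPM on axes that start at 0. Each digit is a liver with its replicate number, sedentary on the left and exercised on the right, and the line is the median of 6. Acsl1, Acsl5, Bdh1, Ehhadh and Acot2 show no overlap between the groups, while Cyp4a10 and Vnn1 spread widely within each group.

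Before fatty acids can be burned or stored they are joined to coenzyme A, and both long-chain acyl-CoA synthetase genes of the list fell. Acsl1 (gene ID 14081, chromosome 8, 46471037 to 46536051), a long-chain acyl-CoA synthetase, ran from 922.8 to 1079 CPM in sedentary livers, with a median of 991.5. It ran from 528.1 to 702.7 CPM in exercised livers, with a median of 621.2, so that every exercised liver was below every sedentary liver. Acsl1 fell by 0.695 on the log2 scale, or 38.2% (SE 0.072, adjusted p = 9.69e-07 from edgeR; exact permutation test over the livers, two-sided, p = 0.00216, which is the smallest 6 against 6 can give). Acsl5, a second synthetase of this family, was between 357.3 and 451.8 CPM in sedentary and between 244.3 and 325.6 CPM in exercised livers, again without overlap. It fell by 0.44 on the log2 scale (SE 0.0767, adjusted p = 0.000164 from edgeR). The ratio of Acsl1 to Acsl5, compared per transcript length as FPKM, fragments scaled for length and depth, was 1.5 to 1.85 in sedentary and 1.28 to 1.61 in exercised livers, and the ranges overlapped.

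Thioesterases remove coenzyme A again. Acot2 (gene ID 171210, chromosome 12, 83987861 to 83993877), the mitochondrial enzyme, ran from 5.04 to 10.0 CPM with a median of 5.64 in sedentary livers, and from 1.68 to 3.55 CPM with a median of 3.19 in exercised livers. All exercised livers were below all sedentary livers, and Sedentary 2 was far above the rest of its group. The log2 fold change of Acot2 was -1.10 (SE 0.196, adjusted p = 0.000301 from edgeR; two-sided exact permutation test, p = 0.00216), and this rested on as few as 31 reads in a liver. Acot1, its cytosolic neighbour, did not pass the test (28.7 to 44.2 CPM after exercise, 30.3 to 37.4 CPM at rest, log2 fold change 0.16, adjusted p = 0.242 from edgeR). Within a liver, Acot1 was 5.03 to 8.85 times Acot2 in FPKM at rest and 11.9 to 26.5 times after exercise, without overlap. Of the 100-base windows of these transcripts, 21.9% of those of Acot1 and 17.1% of those of Acot2 also occur in another Acot gene, so the reads of the family are divided by estimate. The summed counts of Acot1 to Acot6 fell by 0.64 on the log2 scale (adjusted p = 6.62e-05 from edgeR). That sum includes Acot3 (mean 33.4 CPM at rest and 8.95 CPM after exercise) and Acot4 (28.8 and 16.3 CPM), which fell too. Acot2 shares its windows with Acot1 alone, and a sum of this pair was not tested.

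At the entry of the carnitine shuttle no difference passed the test. Cpt1a (gene ID 12894, chromosome 19, 3322326 to 3385735), whose product sets the rate at which long chains enter mitochondria, was between 139.6 and 186.2 CPM in sedentary livers, with a median of 163.1. In exercised livers it was between 148.0 and 199.1 CPM, with a median of 172.7. The groups overlapped over most of their range, and the log2 fold change of Cpt1a was 0.09 (SE 0.079, adjusted p = 0.381 from edgeR; two-sided exact permutation test, p = 0.338), with a sign that turned when libraries were scaled by size alone. Cpt2, which acts on the matrix side, was at -0.13 on the log2 scale (adjusted p = 0.126 from edgeR). Slc25a20, the carnitine-acylcarnitine carrier between them, fell by 0.23 on the log2 scale (SE 0.0541, adjusted p = 0.00258 from edgeR) without overlap, with 83.3 to 92.1 CPM at rest and 68.9 to 80.7 CPM after exercise.

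The log2 fold changes of the mitochondrial matrix enzymes were small. For the 15 genes of the spiral, its auxiliary enzymes and electron transfer, log2 fold changes ran from -0.30 to 0.09 with a median of -0.07, 4 genes were lower (26.7%, against 21.3% of all genes tested) and none was higher. The first step is taken by acyl-CoA dehydrogenases of different chain length. Among them Acadvl, for very long chains, was lower with a log2 fold change of -0.13 (adjusted p = 0.0321 from edgeR) and no overlap, with 328.8 to 349.2 CPM at rest and 298.9 to 322.6 CPM after exercise. This call was lost in 6 of the 12 fits that omitted a single liver and with the replicate block (adjusted p = 0.0656 from edgeR). It was also lost with no filter beyond 1 count. Acadl for long chains (-0.01), Acadm for medium chains (0.09) and Acads for short chains (-0.07) did not pass. Acadvl shares 42.9% of its annotated exon bases with Dvl2 on the opposite strand, and whether reads were counted by strand is not given in the sources used here. Dvl2 itself did not pass the test (log2 fold change -0.05).

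All 5 genes of the later steps of the spiral had negative log2 fold changes, and 2 of them passed the test. Hadha and Hadhb encode the α and β subunits of the mitochondrial trifunctional protein, and their genes start 272 bases apart in opposite directions. Hadha was at -0.15 (adjusted p = 0.0558 from edgeR) and Hadhb at -0.13 (adjusted p = 0.0598) on the log2 scale, both just short of the threshold, and in both all 6 exercised livers were below the sedentary median. Their FPKM ratio stayed between 1.63 and 1.70 at rest and between 1.56 and 1.74 after exercise, although 52.8% of the 100-base windows of Hadhb also occur in the pseudogenes Gm13910 and Gm9108. The dehydrogenase gene Hadh (-0.15, adjusted p = 0.0228) and the hydratase gene Echs1 (-0.15, adjusted p = 0.0384, both from edgeR) were lower, and the thiolase gene Acaa2 (-0.07, adjusted p = 0.331) did not pass. The call of Hadh was lost in 4 and that of Echs1 in 8 of the 12 fits that omitted a single liver. Echs1 also lost it with the replicate block (adjusted p = 0.0514 from edgeR). The same held for Echs1 with Rplp0 as scaling gene and with no filter beyond 1 count. Hadh had no overlap, with 273.2 to 303.1 CPM at rest and 249.4 to 269.4 CPM after exercise.

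Unsaturated chains need auxiliary enzymes, of which 1 of 3 passed the test. Decr1, the mitochondrial dienoyl-CoA reductase, fell by 0.30 on the log2 scale (SE 0.0577, adjusted p = 0.000417 from edgeR), with 133.5 to 157.8 CPM at rest and 104.8 to 126.6 CPM after exercise and no overlap. The enoyl-CoA isomerase genes Eci1 (-0.15, adjusted p = 0.0522) and Eci2 (0.06, adjusted p = 0.502, both from edgeR) did not pass, and the sign of Eci2 turned with scaling by library size alone. On log2(FPKM + 0.1) Eci2 was lower (-0.15, adjusted p = 0.0473 from limma), and its FPKM per count shifted by -0.112 on the log2 scale between the groups, a size reached in 2.18% of the 11537 genes compared. The electrons of the first step pass to the electron transfer flavoprotein, encoded by Etfa and Etfb, and on to its dehydrogenase, encoded by Etfdh. Their log2 fold changes were -0.0022, -0.06 and -0.03, and none passed. In FPKM, Etfb was 1.85 to 2.24 times Etfa at rest and 1.88 to 2.00 times after exercise, where 53.0% of the exon bases of Etfb lie under the annotated gene Gm45233 on the same strand.

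Ketone body formation uses acetoacetyl-CoA thiolase (Acat1) early and β-hydroxybutyrate dehydrogenase (Bdh1) last. Acat1 was at -0.13 on the log2 scale (adjusted p = 0.105 from edgeR). Bdh1 (gene ID 71911, chromosome 16, 31422297 to 31458901) was between 130.1 and 156.1 CPM at rest, with a median of 147.1, and between 95.7 and 111.1 CPM after exercise, with a median of 102.0, and the groups did not overlap. Its log2 fold change was -0.50, or a fall of 29.1% (SE 0.0568, adjusted p = 2.79e-06 from edgeR; two-sided exact permutation test, p = 0.00216). The FPKM ratio of Acat1 to Bdh1 was 1.74 to 2.15 at rest and 2.42 to 2.70 after exercise.

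**Figure D3:**
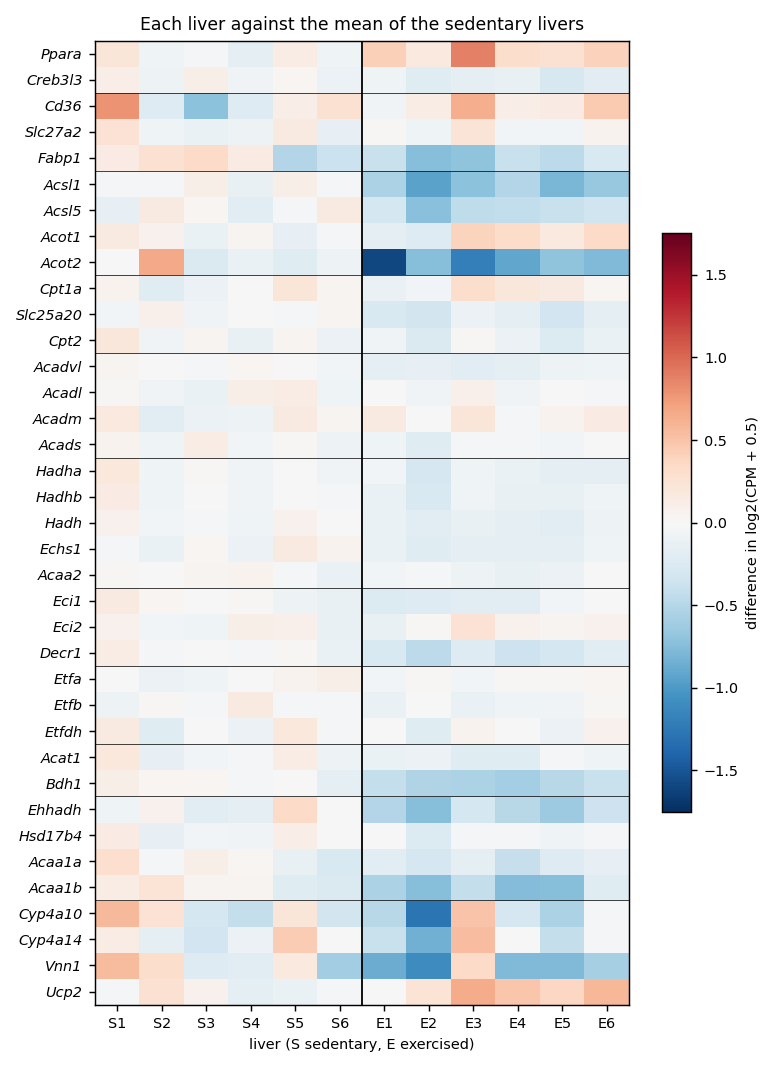
Level of each gene in each liver minus the mean of the sedentary livers, as a difference in log2(CPM + 0.5), with red above and blue below. Rows are the 37 genes by role, columns are the 6 sedentary (S) and 6 exercised (E) livers. Acsl1, Bdh1 and Ehhadh are blue in all 6 exercised livers, and Cyp4a10, Cyp4a14 and Vnn1 turn from red to blue between Exercise 3 and Exercise 2.

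Of the 4 peroxisomal genes, 3 were lower, against 21.3% of all genes tested, and 1 of these calls, that of Acaa1a, was lost without Exercise 4. Ehhadh (gene ID 74147, chromosome 16, 21761285 to 21787834), the bifunctional enzyme of the PPARα-inducible spiral, ran from 278.6 to 398.8 CPM with a median of 307.2 at rest and from 188.1 to 255.5 CPM with a median of 222.9 after exercise. No exercised liver reached the lowest sedentary one. Ehhadh fell by 0.51 on the log2 scale (SE 0.0901, adjusted p = 0.000204 from edgeR; two-sided exact permutation test, p = 0.00216). Hsd17b4, the bifunctional enzyme for branched chains, was at -0.07 (adjusted p = 0.396 from edgeR) and did not pass.

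The closing thiolase of peroxisomes has 2 gene copies in the mouse. Acaa1b (gene ID 235674, chromosome 9, 119148043 to 119157093) ran from 618.8 to 873.0 CPM with a median of 765.8 at rest and from 436.1 to 635.6 CPM with a median of 472.5 after exercise. Only Exercise 6, at 635.6 CPM, reached the sedentary range. Acaa1b fell by 0.57 on the log2 scale (SE 0.105, adjusted p = 0.000374 from edgeR; two-sided exact permutation test, p = 0.00433). Acaa1a, its neighbour, fell by 0.25 (SE 0.0789, adjusted p = 0.0176 from edgeR), a call lost without Exercise 4 (adjusted p = 0.0527). The ratio of Acaa1b to Acaa1a in FPKM was 6.43 to 8.79 at rest and 5.00 to 6.86 after exercise, with overlap. Some of the 100-base windows of each copy occur in the other (21.6% and 22.6%), and the summed counts fell by 0.52 on the log2 scale (adjusted p = 0.000344 from edgeR).

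Cyp4a10, Cyp4a14 and Vnn1 are classic PPARα targets, the first 2 for omega oxidation and the last for a pantetheinase that releases a precursor of coenzyme A. None passed the test, and they varied more between mice than most of the other genes. Cyp4a10 was between 308.2 and 608.8 CPM at rest and between 168.3 and 577.8 CPM after exercise (log2 fold change -0.31, SE 0.284, adjusted p = 0.423 from edgeR). Cyp4a14 was between 580.8 and 994.0 CPM at rest and between 407.4 and 1067 CPM after exercise (log2 fold change -0.15, SE 0.215). Exercise 3 was the highest and Exercise 2 the lowest exercised liver in both genes. For Cyp4a10, 5 of 6 exercised livers lay below the sedentary median and none above the sedentary range. Vnn1 was between 11.2 and 25.8 CPM at rest and between 7.83 and 22.0 CPM after exercise (log2 fold change -0.62, adjusted p = 0.0969 from edgeR). Without Exercise 3, the only exercised liver above 11.4 CPM, its log2 fold change was -0.89 and the adjusted p 0.00496. The coefficient of variation within the exercised group was 40.3% for Cyp4a10, 34.0% for Cyp4a14 and 44.1% for Vnn1, against 2.56% for Etfa and 3.22% for Acadvl.

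Ucp2, which encodes a carrier of the inner mitochondrial membrane, rose, with 12.9 to 17.7 CPM at rest and 14.7 to 23.1 CPM after exercise, a log2 fold change of 0.41 (SE 0.103, adjusted p = 0.00414 from edgeR; two-sided exact permutation test, p = 0.013). All 6 exercised livers were above the sedentary median, and Exercise 1 and Exercise 2 lay within the sedentary range. Its annotated exons share 4.36% of their bases with Dnajb13 on the opposite strand. In all, 13 of the 37 genes share exon bases with another annotated gene, 12 of them with one on the opposite strand. Only 5 of the partner genes were tested. Of these 5, Myd88 (0.36) and Paox (-0.47), which overlap Acaa1a and Echs1, passed the test.

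**Figure D4:**
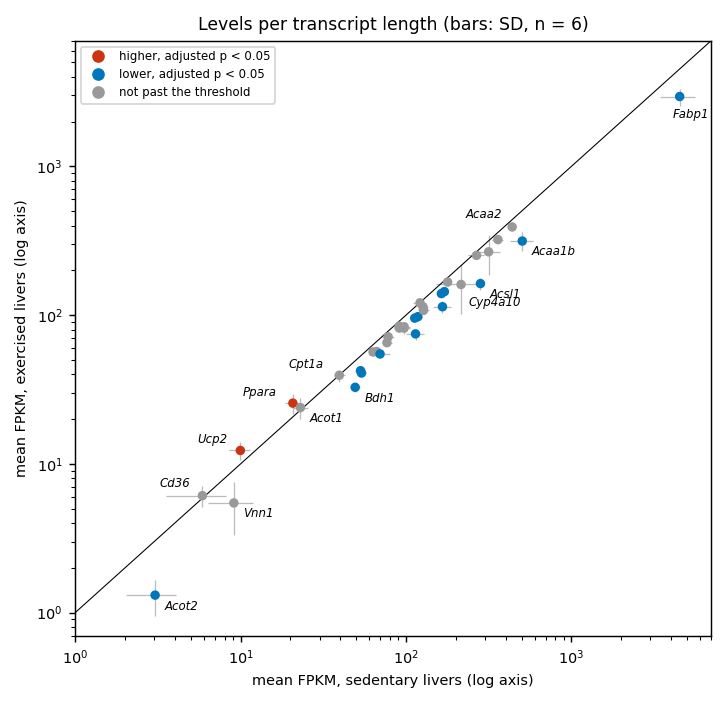
Mean FPKM of each of the 37 genes in sedentary (horizontal) and exercised livers (vertical) on log axes, with SD bars (n = 6). The diagonal marks equal values. Fabp1 is highest at 4520 and 2951 FPKM, Acot2 is lowest at 3.04 and 1.31 FPKM, and Ppara and Ucp2 lie above the diagonal.

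Per transcript length the 37 genes spanned a wide range. Fabp1 was at 4520 ± 1090 FPKM (SD, n = 6) at rest and 2951 ± 387 FPKM after exercise. The next genes at rest were Acaa1b (504.8 ± 80.9 FPKM) and Acaa2 (438.6 ± 24.7 FPKM), and after exercise Acaa2 (391.9 ± 22.0 FPKM) and Etfb (322.2 ± 20.9 FPKM) came before Acaa1b (314.9 ± 46.1 FPKM), of which the last 2 lie within one another's spread. At the low end stood Acot2, Cd36, Vnn1 and Ucp2, each below Ppara (20.7 ± 2.13 FPKM at rest and 25.6 ± 4.04 FPKM after exercise) in both groups. Without Fabp1, the remaining genes took 0.694% to 0.818% of all FPKM in a sedentary liver and 0.580% to 0.650% in an exercised liver. The 15 matrix enzymes took 0.330% to 0.368% and 0.296% to 0.320%. Neither share overlapped between the groups, and on the FPKM scale the median gene also lay lower after exercise, at -0.0932 on the log2 scale with 0.1 added to each value.

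Individual livers differed across several genes at once. Exercise 2 was the lowest of its group in 20 of the 37 genes and the highest in none. Exercise 3 was the highest in 16, among them Ppara, Cd36, Acot1, Cpt1a, Ucp2 and the 3 variable targets Cyp4a10, Cyp4a14 and Vnn1, and Exercise 6 was the highest in 14, among them Acads, Hadh, Echs1 and Acaa2. In the sedentary group, Sedentary 1 was the highest in 19 genes and Sedentary 6 the lowest in 12. The median deviation of the 37 genes from their group mean was 0.128 on the log2 scale in Sedentary 1 and -0.132 in Exercise 2, where that of all genes tested was 0.0059 and 0.0030. These counts describe the livers sampled, and the cause of the differences was not tested.

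The rest of the pathway was read from 101 further genes, of which 95 were tested. Of these 12 were higher (12.6%), 42 were lower (44.2%) and 41 did not pass, against 21.1% and 21.3% of all genes tested. The median log2 fold change of the 95 genes was -0.17. The list was written by hand from the roles of the genes, and no set test was run on it. Of 20 further peroxisomal genes 13 were lower and 1 was higher, of 24 further mitochondrial genes 8 were lower and 2 higher, and of 20 further PPARα targets 9 were lower and 2 higher.

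The 6 largest increases were those of Lpin1, Ppargc1a, Angptl4, Ppargc1b, Slc25a34 and Cpt1b. Lpin1, a phosphatidate phosphatase that also serves as a coactivator of PPARα, was between 111.0 and 360.2 CPM at rest and between 823.1 and 1170 CPM after exercise, a log2 fold change of 2.21. The coactivator genes Ppargc1a (1.88) and Ppargc1b (1.37) and the target Angptl4 (1.64), whose product inhibits lipoprotein lipase, followed on the same scale. Slc25a34 (0.82) and Cpt1b (0.78), the CPT1 form known from muscle, came next. In all 6 genes no exercised liver overlapped a sedentary one, but they were chosen for their large rises. Of all genes tested, 11.7% lay higher without overlap. Cpt1b was at 2.3 to 4.39 CPM at rest and 4.71 to 7.73 CPM after exercise.

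The 6 largest decreases were those of Acot3, Fgf21, Rxrg, Nudt7, G0s2 and Plin2. Acot3, a peroxisomal thioesterase, was at -1.91 on the log2 scale, with 25.8 to 50.3 CPM at rest and 5.65 to 13.9 CPM after exercise. Nudt7, which hydrolyses coenzyme A in peroxisomes, was at -1.54 (231.5 to 543.7 CPM against 111.9 to 146.7 CPM). Fgf21, a liver hormone and PPARα target, was at -1.88, but it was near 1 CPM at rest (0.60 to 1.43 CPM) and at 0.16 to 0.52 CPM after exercise. G0s2 (-1.51), whose product inhibits a triglyceride lipase, and Plin2 (-1.21), which coats lipid droplets, are targets too. The RXR gene Rxrg (-1.81) was low, with 4.29 to 7.87 CPM at rest and 1.33 to 2.26 CPM after exercise. None of these 6 genes overlapped between the groups, but they were chosen for their large falls. Of all genes tested, 10.6% lay lower without overlap.

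**Figure D5:**
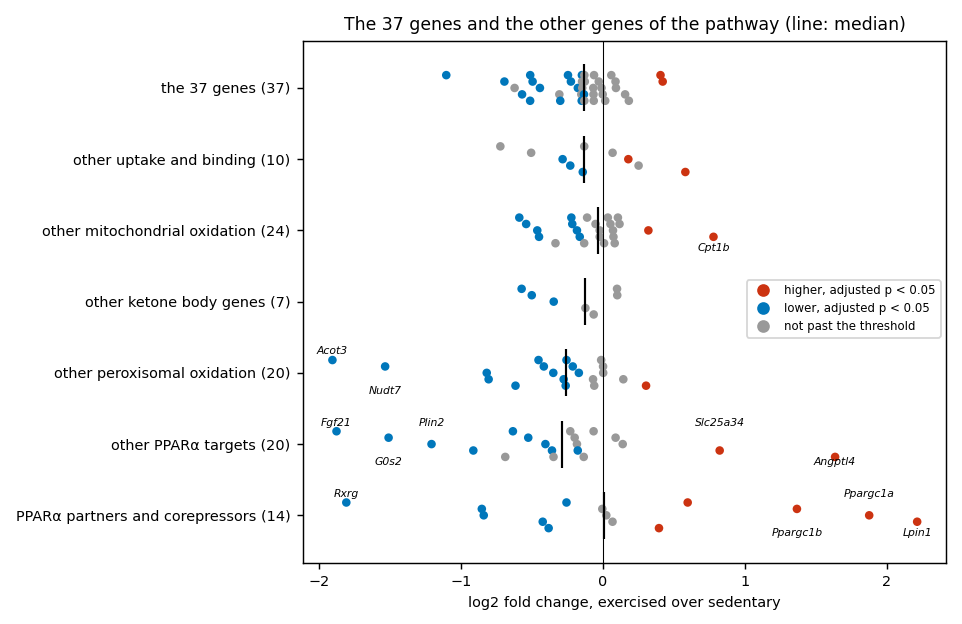
Log2 fold change of the 37 genes and of the 95 other pathway genes tested, each point a gene, grouped by role with the number of genes in parentheses and the median as a line. Red points were higher and blue points lower at an adjusted p under 0.05. The named genes are the 6 largest increases and 6 largest decreases among the other genes, and the partners of PPARα span the widest range, from Rxrg at -1.81 to Lpin1 at 2.21.

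Among the 14 partners and corepressors, 5 were higher (35.7%, against 21.1% of all genes tested) and 6 were lower (42.9%, against 21.3%). Beside Lpin1, Ppargc1a and Ppargc1b, the higher genes were the Mediator subunit gene Med1 (0.60) and the RXR gene Rxrb (0.39), and all 5 had no overlap between the groups, as in 11.7% of all genes. Among the lower genes were Rxrg, the receptor genes Ppard (-0.84) and Pparg (-0.85), the corepressor gene Nrip1 (-0.38), and the deacetylase gene Hdac3 (-0.26). Rxra, a further RXR gene, was at 0.07 (adjusted p = 0.488 from edgeR), and Ncor1 was at 0.02 (adjusted p = 0.837).

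Further peroxisomal genes changed outside the 6 largest in each direction. Abcd3, a transporter of fatty acids into peroxisomes, was at -0.62 without overlap (421.3 to 504.7 CPM against 263.9 to 342.2 CPM). The gene for the peroxisome proliferation factor Pex11a was the one that rose (0.30, adjusted p = 0.000306 from edgeR), with 65.4 to 77.8 CPM at rest and 84.6 to 96.8 CPM after exercise. Of 7 further ketone body genes, 3 were lower (42.9%, against 21.3% of all genes tested). These were Slc16a1 (-0.57), Slc16a6 (-0.50) and Bdh2 (-0.35), the first of which encodes a monocarboxylate transporter for ketone bodies and lactate. Of 10 further uptake and binding genes, Slc27a5 (0.18) and Fabp4 (0.58) were higher, and Dbi (-0.28), Acbd5 (-0.23) and Got2 (-0.14) were lower. These shares (20% and 30%) were near those of all genes tested (21.1% and 21.3%). Of the 2 further mitochondrial genes that rose, Slc22a5 (0.32) encodes a carnitine transporter and the other is Cpt1b.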

How the data were processed

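RNA from 12 mouse livers was sequenced (kit-prepared messenger RNA libraries), 6 Sedentary and 6 Exercise, grouped by the sample labels. The authors deposited 1 table that lists 17432 genes and, for each library, estimated counts beside FPKM values. The deposited estimated counts are not scaled, 31.3% are not whole numbers, and they were rounded. The deposited FPKM values are scaled by the authors for transcript length and depth. The submitters' processing notes name Bowtie2 2.3.4.3, RSEM 1.3.1 and the build mm10. The annotation, the strand setting and the test are not given in the sources used here.

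The main test was edgeR's robust quasi-likelihood fit (edgeR 4.0.16, R 4.3.3) with TMM factors and group as its term. The filterByExpr filter at 10 counts left 12344 genes, and p-values were adjusted by Benjamini-Hochberg over all of them (threshold 0.05). Single genes were also compared by a two-sided exact permutation test on mean log2(CPM + 0.5) over all 924 relabellings. With at least 18745379 counts per library, sampling of reads adds little to the differences between mice, except where a gene has few counts. Alternatives were other filters, scalings, thresholds, DESeq2 1.42.0, limma 3.58.1 (voom, and log2(FPKM + 0.1) or log2(FPKM + 1)), the replicate number as a block, summed paralogs and leaving out each liver. The test was tried on simulated counts. No libraries were identical (chi-square per gene 7.94 to 45.2 within groups).

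The 37 genes, the further pathway genes and the marker genes of 10 cell types were chosen with earlier results of these data known. All 37 genes are named. Lowest, median and highest levels are given for those past the threshold with an absolute log2 fold change of at least 0.5, and for Ppara and Cpt1a. Of the other pathway genes past the threshold, the 6 largest increases and decreases are named, as is every group of at most 5. Bdh1 (-0.4963) and Abcd3 are described beyond this rule, chosen after their values were seen. Acot4, Ppard, Pparg, Nrip1, Hdac3, Rxra and Ncor1 are also named outside it. Some genes of the pathway list are counted but not reported by name here. Shared 100-base windows and exon overlaps came from GENCODE, and promoters from RefSeq, both on GRCm38.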

Additional observations from a re-analysis of the deposited data

Results flagged for a closer look

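Each group of 6 values was searched, for all 37 genes, for an extreme liver whose gap to its neighbour, as a share of the whole range, exceeds Dixon's critical value. Of 74 such groups 7 held one. For independent groups of normally distributed values chance gives about 1 in 20, or 3.7. The same 12 livers recur in every gene, so an excess over 3.7 cannot be read from this count.

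Exercise 3 was the far liver for Ppara at 255.8 CPM, its neighbour being at 186.5 CPM (gap over range 0.696), and for Vnn1 at 22.0 CPM, with the next at 11.4 CPM (0.746). Exercise 2 was the far liver on the low side for Acsl5 at 244.3 CPM, with the next at 296.8 CPM (0.646), and for Hadhb at 122.8 CPM, with the next at 135.5 CPM (0.676). Sedentary 1 was far above the rest for the trifunctional protein genes, with Hadha at 373.3 CPM against 334.0 CPM for the next liver (0.634) and Hadhb at 164.2 CPM against 149.3 CPM (0.652). Sedentary 2 had Acot2 at 10.0 CPM, with the next sedentary liver at 6.12 CPM (0.783). The cause of these values was not tested.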

How the results depend on the processing

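The 2 higher genes, Ppara and Ucp2, stayed past the threshold in every setting except the 1.5-fold threshold, which left 0. The number of lower genes, 14 in the main test, was 10 to 15 with 1 liver left out, 17 with DESeq2, 9 at an adjusted p under 0.01 and 2 with a change of at least 1.5-fold. The number rose to 24 with library size alone and to 25 with limma on log2(FPKM + 0.1) and on log2(FPKM + 1), where the median of all genes lies at -0.0985, -0.0932 and -0.0661 on the log2 scale. The split over all genes moved with it (1767 higher and 3735 lower with library size alone, 1702 and 3714 on log2(FPKM + 0.1), 1914 and 2833 with Rplp0 as scaling gene). Genes without overlap numbered 18 both on FPKM and with library size alone, against 9. Of the 16 called genes, 10 kept their call in all 12 settings with every liver and all 12 that left out 1 liver. Of the 21 not called, 11 passed in none with the sign of the main test. Among these 11, Eci2 passed with the sign turned on both FPKM settings, and Acot1 did so with paralogs summed. The calls of Acadvl, Hadh and Echs1 were lost without 6, 4 and 8 of the 12 livers, one at a time. Of the other pathway genes, 7 were higher with a 1.5-fold change, and 23 were lower at an adjusted p under 0.01 and 14 with a 1.5-fold change.

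With the replicate block, 2 genes were higher and 12 lower: Fabp1, Acadvl and Echs1 lost their calls and Hadha gained one. The correlation of deviations between the livers of the same number ran from -0.0987 to 0.161. It was not compared with livers of unlike number, so whether the numbers pair the livers was not tested.

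Signs turned in genes that had not passed. With upper quartile, library size, Rplp0, log2(FPKM + 0.1) and log2(FPKM + 1), Slc27a2 was at -0.00467, -0.0821, -0.0301, -0.076 and -0.0758. With library size, log2(FPKM + 0.1) and log2(FPKM + 1), Cpt1a was at -0.00456, -0.00658 and -0.00639, Acadm at -0.00797, -0.00436 and -0.00435, and Eci2 at -0.0386, -0.153 and -0.151, the last 2 past the threshold as lower. With paralogs summed, Acot1 took the family value of -0.638. With 1 liver left out, Slc27a2 ran from -0.0236 to 0.0704, Acadl from -0.034 to 0.0215, Etfa from -0.0231 to 0.0192 and Etfdh from -0.0695 to 0.0121. Apart from the scalings, whose shift of all genes is given, the cause was not tested.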
